A study of Rattus norvegicus with 24 samples.

Results

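The 45 genes described here encode proteins of the cytosolic ribosome. They were taken by symbol from the annotation of a rat expression array, which gave 14201 genes with a probe set of their own. A gene was included where its symbol starts with Rpl or Rps and a digit, or is Rpsa, Rplp0, Rplp1 or Rplp2. Kinases named Rps6k, pseudogenes and copies ending in l1 or l2 were left out. The choice rests on symbols. Of the 45, 30 belong to the large subunit and 15 to the small subunit. The array names many other ribosomal genes only together with further genes, so that Rps19 and Rps14, for example, are not among the 45. Ribosomal protein genes have many pseudogenes, and whether their transcripts also bind these probe sets was not tested.

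The ribosome is the machine that translates messenger RNA, built from ribosomal RNA and a large set of proteins that are made in equal numbers. Cells that grow or divide devote much of their synthesis to it, and ribosomal protein messages are among the most abundant in any cell. In vertebrates these messages begin with a run of pyrimidines, the terminal oligopyrimidine tract, through which growth signals control their translation together. Inherited loss of 1 copy of some of these genes causes Diamond-Blackfan anaemia in humans, a failure of red cell formation.

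Cyclophosphamide is an alkylating cytostatic drug. The rats were wild-type male Sprague-Dawley animals of 46 to 49 days of age that were dosed orally for 5 days. Treated rats received 40 mg/kg/day of the drug, and the others vehicle. In each treatment, 3 rats had a wood stick (wood block in the design text) in the cage and 3 had none, which made 4 groups: cyclophosphamide with wood, cyclophosphamide without wood, vehicle with wood and vehicle without wood. Liver and spleen of the 12 rats were each run on 1 array, 24 in all.

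Of the 30980 values of a spleen array 1021 to 1920 were blank, against 4924 to 6060 of a liver array. The most blanks in liver were on the array of rat 2003 (cyclophosphamide, no wood), which stood apart. The spleen arrays fell into a set of 4 with 1778 or more blanks, which were those of rat 2005 (cyclophosphamide, no wood) and of the 3 vehicle rats without wood, and a set of 8 with 1183 or fewer. The spleen of rat 2003 also had a summed intensity of exocrine pancreas markers of 21140, against 421 to 1595 on the 11 other spleen arrays. Hepatocyte markers summed to 327 to 947 on spleen arrays and to 90481 to 101262 on liver arrays. B cell markers summed to 17372 to 23352 in vehicle spleens and to 589 to 774 in vehicle livers, so both organs carried the markers of their labels.

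Start-site sequences are shown for members that the results turn on, because the pyrimidine run is a feature that the choice by symbol did not use. RefSeq start sites (build GRCr8) were matched by symbol for 40 of the 45 members. Where a symbol had several start sites, only the first by chromosome and coordinate was used. Each line gives 30 bases on the gene's strand, 15 before the annotated start and 15 from it, and capitals mark the longest run of C and T where it has at least 8 bases. Rps13 (chr1:180009646-180009675, minus strand) had the largest fall in spleen among members with a sequence. Rpl39 (chrX:121195882-121195911, minus), Rpl14 (chr8:129163605-129163634, plus), Rpl37a (chr9:81748076-81748105, plus) and Rpl21 (chr12:13386139-13386168, minus) had the largest falls among abundant members. Rpl5 (chr14:1995211-1995240, minus) and Rpl11 (chr5:153560788-153560817, minus) form a complex with 5S ribosomal RNA that binds Mdm2, the ubiquitin ligase of p53. Rps27l (chr8:76443643-76443672, plus), a copy of Rps27 known in human cells as a p53 target, did not pass the test in spleen.
Rps13: gccgtttcctacctcgTTCTCTCTTTgctt
Rpl39: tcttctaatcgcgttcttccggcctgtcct
Rpl14: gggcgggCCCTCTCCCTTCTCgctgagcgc
Rpl37a: gcatgcccgttgcgTCTCTTCCTCTTCggg
Rpl21: TTCCTTTCCgccggggcagccatcttccag
Rpl5: aCTCTCTTTCCCacgtcgcttgcgtcctgg
Rpl11: ggggacttgaagcttgtttggtgctgggga
Rps27l: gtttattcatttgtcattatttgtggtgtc

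A run of at least 8 pyrimidines within 15 bases of the start, on either side, was found in 25 of the 40 members (62.5%), against 3126 of 27457 genes (11.4%). Some runs, such as those of Rpl21 and Rpl5, lie wholly before the annotated start, so a run in this window need not be part of the message. The longest run in that window had a median length of 9 bases in the members and of 4 bases in all genes. Within the 300-base windows that RefSeq start sites gave, CCGGAA on either strand was found in 14 members (35%) and in 15.8% of all genes. CACGTG, which reads the same on both strands and does not overlap the other motif, was found in 3 members (7.5%) and in 6.63% of all genes. These are matches of letters, and no window without a match says anything about a factor. In spleen the drug's log2 change had a median of −0.41 in the 25 members with a run and of −0.31 in the 15 without one. The changes ran from −1.08 to 0.31 in members with a run and from −0.95 to 0.09 in those without one. Whether these differ was not tested. Rpl39 and Rpl11 are among those without one in this window, and both fell.

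Most members were among the brightest genes of either organ. A mean log2 intensity of at least 10 was reached by 39 of the 45. Across these 39, the mean log2 level in spleen ran from 10.53 (Rpl39) to 13.42 (Rpl3), which placed them between the 93.5th and the 99.99th percentile of all genes, with a median at the 99.8th. In liver their means ran from 10.48 (Rpl39) to 12.55 (Rps29), with a median at the 97.8th percentile. The other 6 members, Rpl28, Rpl30, Rpl3l, Rps13, Rps27l and Rps4y2, had dim probe sets. Rpl3l, in mammals a muscle form of Rpl3, was blank on all liver arrays. A probe set's intensity is not a scale on which genes can be ranked, so the percentiles describe these probe sets and not the messages.

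In spleen, cyclophosphamide lowered nearly the whole set. With the effects with and without wood averaged, 43 of 45 members were lower and 0 were higher at an adjusted p under 0.05 (limma, Benjamini-Hochberg over the 13614 genes tested), where 28.1% of all genes were lower and 26.9% higher. Both subunits moved together: 30 of 30 large-subunit members were lower, with a median log2 change of −0.35, and 13 of 15 small-subunit members, with a median of −0.29. The median over all 45 was −0.32, against −0.02 over all genes. Among the 1635 genes with a mean log2 level of at least 10, 34.3% were lower, 36.3% higher, and the median was 0.01; all 39 bright members were lower, with a median of −0.31. RNA of a whole organ was measured, in which fewer cells of a type and less RNA per cell cannot be told apart.

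The share of all genes' summed intensity that fell to the 45 members was 3.68% to 3.83% in the 6 cyclophosphamide spleens, against 4.64% to 5.19% in the 6 vehicle spleens. The groups did not overlap. The mean of the 39 bright members stood at −0.42 to −0.36 log2 units from the vehicle mean on the cyclophosphamide arrays and at −0.05 to 0.07 on the vehicle arrays. For 30 members (66.7%) every cyclophosphamide array was below every vehicle array, where 15.1% of all genes had that pattern. The opposite pattern was found in 0 members and in 16.1% of all genes. The 15 others were Rpl19, Rpl21, Rpl23, Rpl27, Rpl28, Rpl30, Rpl34, Rpl37a, Rpl39, Rpl3l, Rps15a, Rps16, Rps27l, Rps4y2 and Rps6.

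**Figure D1:**
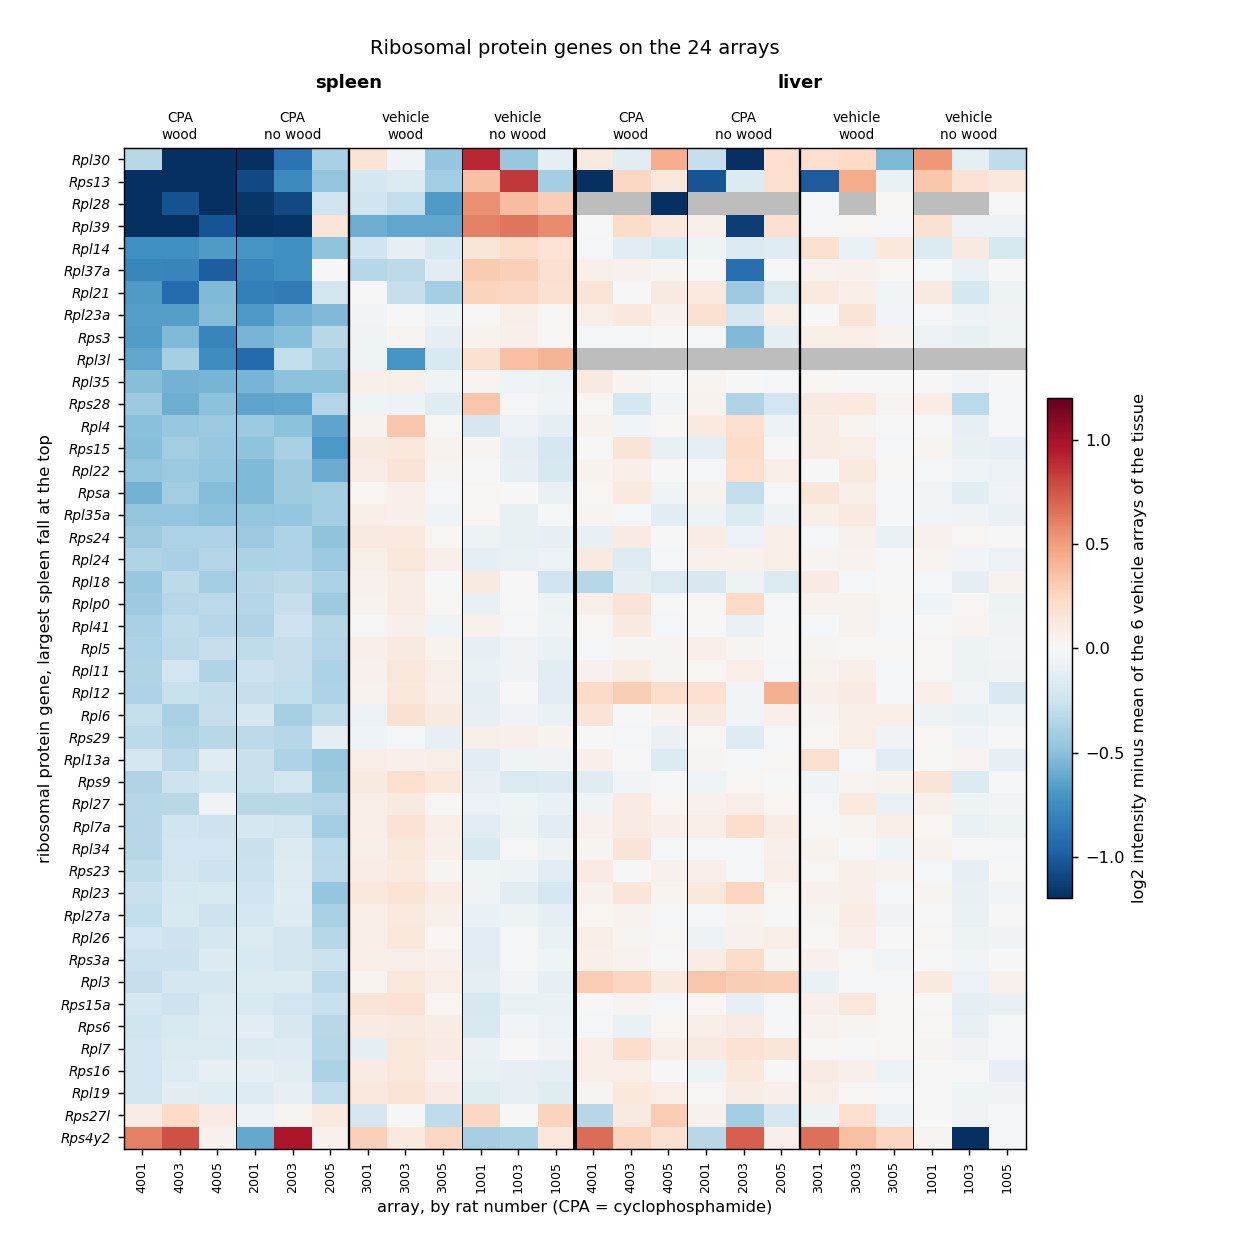
Log2 intensity of the 45 members (rows, largest spleen fall at the top) on the 24 arrays (columns, by rat number), minus the mean of the 6 vehicle arrays of the same organ; grey cells were blank, values beyond the colour scale take its end colour, and CPA is cyclophosphamide. All 6 cyclophosphamide spleens are blue across most rows, the livers are near white, and a few rows at the top also differ between array sets within a treatment.

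The extent of the fall depended on how arrays were scaled. Under quantile normalisation, which gives all arrays of an organ one distribution, 25 members were lower, 0 higher, and the median was −0.13. Under median centring 43 were lower and the median was −0.32. Shares of all genes under these scalings are not given here, and why the fall differed between scalings was not tested.

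Some bright members had groups that lay clearly apart. Rpl35, a large-subunit protein at the exit of the peptide tunnel and a Diamond-Blackfan anaemia gene, had log2 intensities of 12.58, 12.53 and 12.53 with wood and 12.53, 12.60 and 12.60 without wood under the drug, against 13.15, 13.16 and 13.04 with wood and 13.12, 13.04 and 13.03 without wood under vehicle. All 6 drug arrays lay below all 6 vehicle arrays, by 0.53 ± 0.05 on average (SE, n = 6 against 6; adjusted p = 1.34e-05, limma). Rpl23a, which lines the same tunnel exit and contacts the signal recognition particle, had 11.56, 11.57 and 11.70 with wood and 11.53, 11.65 and 11.70 without wood under the drug, against 12.19, 12.23 and 12.16 with wood and 12.23, 12.29 and 12.24 without wood under vehicle. Again no drug array reached a vehicle array, and the log2 change was −0.61 ± 0.05 (adjusted p = 9.18e-06, limma). Rpl14, a large-subunit protein, had 11.97, 11.98 and 12.03 with wood and 12.002, 11.98 and 12.23 without wood under the drug, against 12.47, 12.61 and 12.52 with wood and 12.86, 12.93 and 12.87 without wood under vehicle. The groups were apart, with a log2 change of −0.68 ± 0.06 (adjusted p = 1.01e-05, limma). Its vehicle values without wood all lay above those with wood, and its change was −0.54 ± 0.08 with wood and −0.82 ± 0.08 without wood.

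Rps3, a small-subunit protein at the messenger entry channel that is also known to act in DNA repair, ran from 12.08 to 12.54 on the drug arrays and from 12.76 to 12.93 on the vehicle arrays. Its log2 change was −0.57 ± 0.06 (adjusted p = 5.09e-05, limma), and the groups did not overlap. Rpl21, Rpl37a and Rpl39 also fell, by 0.67 ± 0.12, 0.68 ± 0.13 and 0.95 ± 0.21 (adjusted p = 0.00126, 0.00141 and 0.0031, limma). Their groups overlapped, as described with the array sets.

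The largest log2 changes belonged to dim probe sets. Rpl30, a large-subunit protein, had 5.77, 4.43 and 4.04 with wood and 4.84, 5.22 and 5.72 without wood under the drug, against 6.27, 6.07 and 5.65 with wood and 7.02, 5.65 and 6.002 without wood under vehicle. The groups overlapped, and the change was −1.11 ± 0.33 (adjusted p = 0.0178, limma). Rps13, of the small subunit, had 5.79, 6.02 and 6.10 with wood and 6.27, 6.59 and 6.87 without wood under the drug, against 7.14, 7.18 and 6.93 with wood and 7.70, 8.20 and 6.95 without wood under vehicle. Its drug arrays were all below its vehicle arrays (−1.08 ± 0.19, adjusted p = 0.00104, limma). Rpl28 and Rpl3l fell by 1.02 ± 0.16 and 0.56 ± 0.14 (adjusted p = 0.000449 and 0.00767, limma), at mean intensities of 22 and 23 under the drug and 46 and 34 under vehicle. Rpl30, Rps13 and Rpl28 thus fell by larger linear folds than Rpl35 (1.44-fold) and Rpl3l by a similar one (1.48-fold), and all 4 rest on intensities far below those of the bright members.

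The 11 Diamond-Blackfan anaemia genes among the members were all lower, with log2 changes of −0.53 (Rpl35) to −0.22 (Rps15a) and a median of −0.32, the same as that of all members. As 43 of all 45 members and 28.1% of all genes were lower, that count is not particular to these genes among the members. Rps28 changed by −0.52 ± 0.08, Rpl35a by −0.46 ± 0.05, Rps24 by −0.41 ± 0.05 and Rpl18 by −0.37 ± 0.07. Rps15a, Rps29, Rpl26 and Rpl27 did not pass under quantile normalisation. Rpl5 ran from 12.81 to 12.91 on the drug arrays and from 13.09 to 13.30 on the vehicle arrays, a change of −0.32 ± 0.05 (adjusted p = 0.000258, limma). Its partner Rpl11 ran from 12.73 to 12.88 under the drug and from 12.98 to 13.24 under vehicle, a change of −0.31 ± 0.05 (adjusted p = 0.000579, limma). Neither overlapped between the treatments. Rplp0, which anchors the acidic stalk that recruits elongation factors, fell by 0.36 ± 0.05 (adjusted p = 0.000229, limma). Of Rplp0, Rplp1 and Rplp2 it alone has a probe set of its own here.

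Of the 10 members listed for a second role, or as a copy or tissue form, 8 were lower, and Rps27l and Rps4y2 were not. Among all members 43 of 45 were lower, and among all genes 28.1%, so that count is not particular to these genes. Rpsa, also known as a laminin receptor, changed by −0.48 ± 0.05 (adjusted p = 3.83e-05, limma). Rpl22, needed for T cell development in mice, changed by −0.49 ± 0.06 (adjusted p = 5.17e-05, limma). Rpl13a, which in human cells is released from the ribosome to silence inflammatory messages, changed by −0.29 ± 0.05 (adjusted p = 0.00121, limma). Rps6, the substrate of the S6 kinases, changed by −0.21 ± 0.05 (adjusted p = 0.00911, limma), with values of 13.08 to 13.28 under the drug and 13.23 to 13.52 under vehicle that overlapped. The smallest fall past the threshold was that of Rpl19, −0.18 ± 0.05 (adjusted p = 0.0167, limma). Under quantile normalisation Rpl13a, Rps6 and Rpl19 did not pass.

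The 2 members that were not lower were both dim. Rps27l had 7.75, 7.90 and 7.75 with wood and 7.60, 7.69 and 7.78 without wood under the drug, against 7.45, 7.66 and 7.35 with wood and 7.90, 7.65 and 7.92 without wood under vehicle. The treatments overlapped, and the change was 0.09 ± 0.08 (adjusted p = 0.363, limma). Its 95% interval of −0.09 to 0.26 lies above the members' median change. Rps4y2, a copy of Rps4, ran from 5.65 to 7.24 under the drug and from 5.87 to 6.56 under vehicle (0.31 ± 0.25, adjusted p = 0.319, limma). Its interval, −0.24 to 0.85, also lies above that median.

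**Figure D2:**
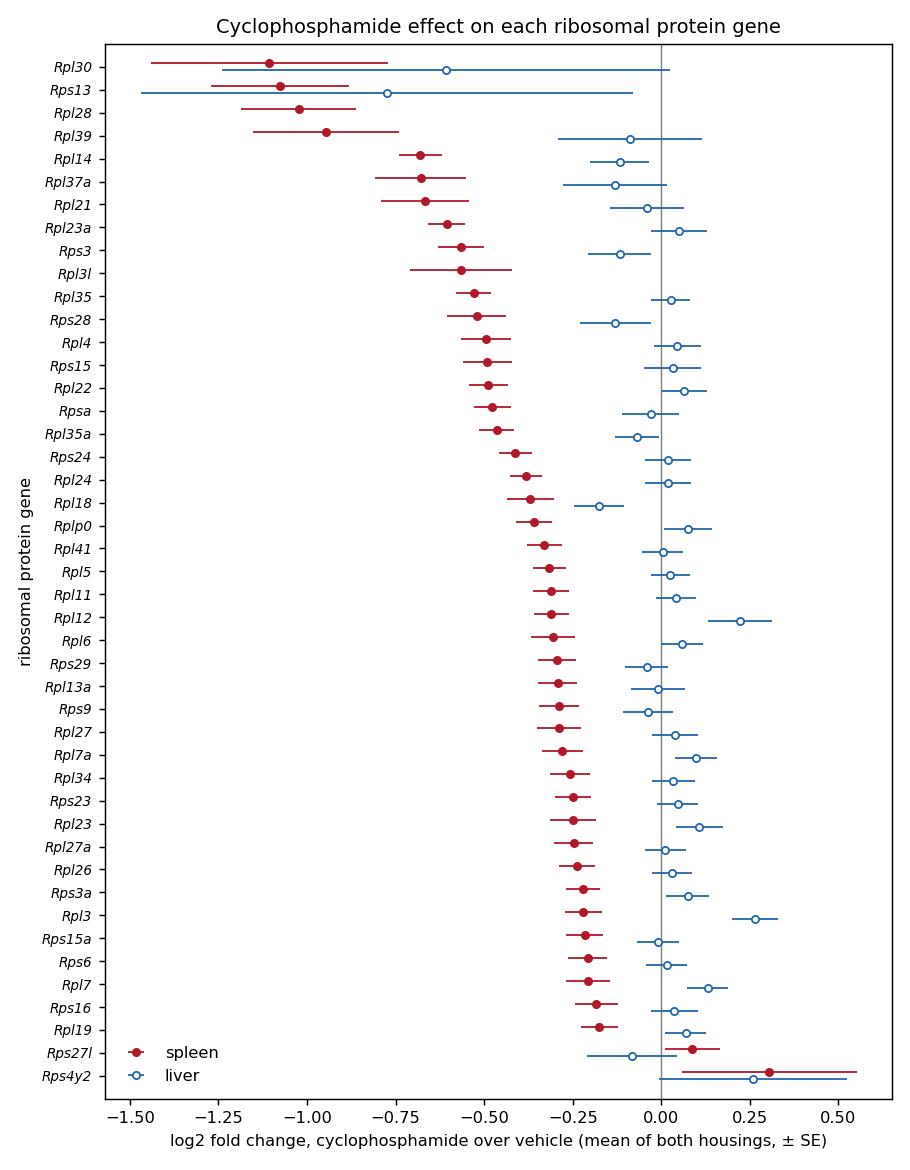
Log2 fold change, cyclophosphamide over vehicle and averaged over housings, for each member in spleen (filled circles) and liver (open circles), with bars of 1 SE. The spleen values lie left of 0 for all members but Rps27l and Rps4y2, and the liver values lie near 0 except for the widely scattered dim members.

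Probe sets that the choice left out gave a like count. Of 36 probe sets that name a ribosomal gene together with other genes, 35 were lower and 0 higher in spleen, with a median log2 change of −0.37. Over all 29020 probe sets tested, 6719 were lower and 6824 higher. Further probe sets of members can be read beside those chosen: the 3 of Rpsa changed by −0.48, −0.71 and −0.78, and the 2 of Rpl3 by −0.22 and −1.04. For Rpl14 the bright probe set changed by −0.68, and a dim one by −0.09 ± 0.27 (adjusted p = 0.792, limma over all probe sets).

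Cell type markers moved in the same spleens, where 28.1% of all genes were lower and 26.9% higher. Of the erythroid markers tested 12 of 13 were lower, and the list's summed intensity was 1782 to 3678 under the drug, against 25216 to 38536 under vehicle, with Epb42 blank on all drug arrays. All 8 B cell markers were lower, with sums of 1988 to 3154 under the drug and 17372 to 23352 under vehicle. All 15 markers of dividing cells were lower, with sums of 1935 to 3992 under the drug and 5709 to 11005 under vehicle. Of 14 T cell markers 6 were lower and 3 higher, and their sums overlapped (10445 to 15040 under the drug, 12522 to 15743 under vehicle). All 12 macrophage markers were higher, with sums of 65859 to 75025 under the drug and 35782 to 42573 under vehicle. Of stromal markers 9 of 10 were higher (sums of 11895 to 14267 under the drug and 4728 to 6134 under vehicle), and of endothelial markers 9 of 10 were higher and 1 lower (11002 to 13562 under the drug and 6132 to 8345 under vehicle). The part of these shifts in the fall of ribosomal messages was not tested.

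The fall was present in both housings. With wood, 38 members were lower and 1 higher, where 18.5% of all genes were lower and 19.9% higher, and the median log2 change was −0.39. Without wood, 27 members were lower and 0 higher, where 22.4% of all genes were lower and 22.7% higher, and the median was −0.30. Every cyclophosphamide array was below every vehicle array for 41 members with wood (28.4% of all genes) and for 37 without wood (27.7% of all genes). The 1 higher with wood was Rps27l (0.31 ± 0.11, adjusted p = 0.0465, limma), a call that held under 9 of 27 alternatives. It ended under quantile normalisation, under median centring and with any 1 rat left out other than 1003, 2005 or 3003. Without wood it changed by −0.14 ± 0.11 (adjusted p = 0.332).

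The difference between the effects, with wood minus without wood, passed the threshold for 0 of 45 members, with 4 at an unadjusted p under 0.05; 0.147% of all genes were higher and 0.558% lower. The smallest p was that of Rps27l (0.45 ± 0.15, adjusted p = 0.263, limma), followed by Rpl19 (−0.25 ± 0.10, adjusted p = 0.348) and Rpl14 (0.28 ± 0.12, adjusted p = 0.366). The counts of 38 and 27 are therefore not shown to differ.

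**Figure D3:**
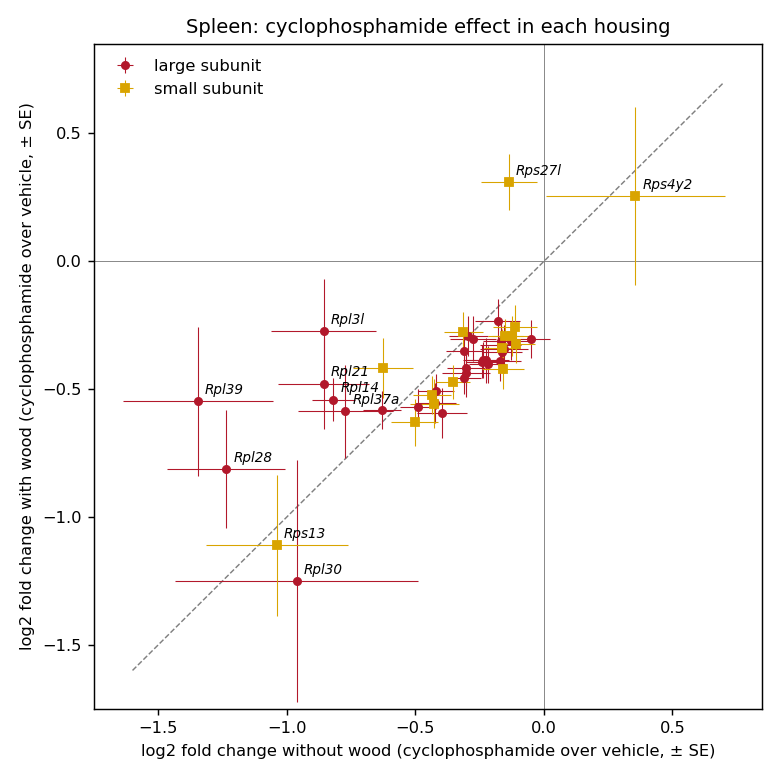
Log2 fold change, cyclophosphamide over vehicle in spleen, for each member with wood (vertical axis) and without wood (horizontal axis), with bars of 1 SE; circles are large-subunit and squares small-subunit members, and the dashed line marks equal effects. Most members lie in the lower left with effects of like size, and Rpl39, Rpl28 and Rpl3l are among those above the line.

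A few members differed between the array sets rather than with the treatment alone. Rpl39, the smallest protein of the tunnel wall, had log2 intensities of 9.79, 9.80 and 9.97 with wood and 9.82, 9.83 and 11.15 without wood under the drug, against 10.43, 10.39 and 10.39 with wood and 11.62, 11.65 and 11.58 without wood under vehicle. The value of 11.15 was that of rat 2005, whose array is in the set with more blanks, as are the 3 vehicle arrays near 11.6. Rpl37a, a zinc-binding large-subunit protein, showed 11.65, 11.64 and 11.44 with wood and 11.65, 11.69 and 12.42 without wood under the drug, against 12.08, 12.12 and 12.29 with wood and 12.74, 12.71 and 12.62 without wood under vehicle. Rpl21 showed 11.65, 11.41 and 11.81 with wood and 11.51, 11.49 and 12.11 without wood under the drug, against 12.32, 12.05 and 11.93 with wood and 12.60, 12.58 and 12.51 without wood under vehicle. In each of the 3 genes rat 2005 lay well above its group mates, and within each array set all drug arrays lay below all vehicle arrays.

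With the array set as a batch term, 42 members were lower and 0 higher, with a median of −0.35. Rpl39 then changed by −0.50, Rpl28 by −0.73, Rpl37a by −0.43 and Rpl21 by −0.47, and Rpl30 no longer passed (−0.88, adjusted p = 0.107, limma). On the 8 arrays with fewer blanks alone, with wood, 40 members were lower and 1 higher, and the median was −0.39. On the 4 arrays with more blanks, all without wood, rat 2005 was below the mean of the 3 vehicle rats for 44 of 45 members, with a median difference of −0.33. The drug arm there is 1 array, so no test is read from it. Shares of all genes under the batch term and within each array set are not given here. These counts are thus not set against those of all genes.

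**Figure D4:**
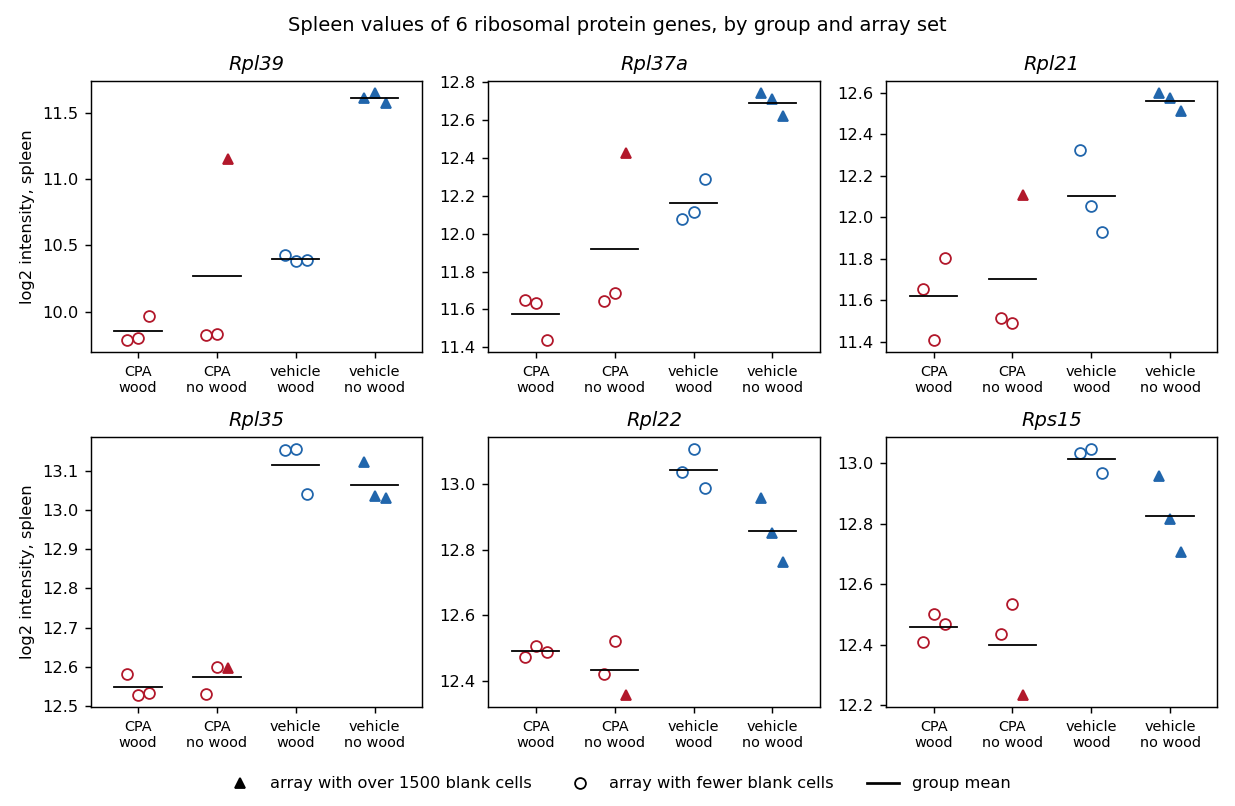
Spleen log2 intensities of Rpl39, Rpl37a, Rpl21, Rpl35, Rpl22 and Rps15 on each array, by group (CPA is cyclophosphamide, lines are group means of 3 rats); filled triangles are arrays with over 1500 blank cells and open circles arrays with fewer. In the upper row the triangles lie above the circles of the same treatment, and in the lower row the treatments separate whichever the array set.

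For wood in spleen, the share of members that passed was near that of all genes. Averaged over the treatments, 3 members were lower and 0 higher with wood, where 6.05% of all genes were lower and 6.05% higher; 13 had an unadjusted p under 0.05. Of the 45 changes 30 were positive and 15 negative, with a median of 0.07. The 3 lower were Rpl39 (−0.82 ± 0.21, adjusted p = 0.035, limma), Rpl28 (−0.60 ± 0.16, adjusted p = 0.0435) and Rpl14 (−0.21 ± 0.06, adjusted p = 0.046). In vehicle rats alone, Rpl39, Rpl28 and Rpl14 were lower with wood and Rps9 and Rpl19 higher, where 7.64% of all genes were lower and 7.48% higher. Leaving out 1 rat at a time gave 0 to 5 lower and 0 to 5 higher there, and all alternatives 0 to 6 lower and 0 to 14 higher. The median in vehicle rats was 0.14, and the members' share of summed intensity was 4.84% to 5.19% with wood, against 4.64% to 4.74% without wood, so that these groups did not overlap. In cyclophosphamide rats alone 0 members and 0% of all genes passed (limma), with 0 members at an unadjusted p under 0.05. All vehicle arrays without wood are in the set with more blanks and all with wood in the other, so that in vehicle rats wood and array set cannot be told apart. With the array set as a batch term 0 members passed in either direction. For wood averaged over the treatments, leaving out rat 1001, 1003, 3001, 3003, 3005, 4001, 4003 or 4005 also left 0 lower, and leaving out 1005 left 1.

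In liver, the drug moved no member past the threshold. Of the 43 tested (Rpl28 and Rpl3l had too few values), 0 were higher and 0 lower (limma), where 0.166% of all genes were higher and 0.647% lower; 4 had an unadjusted p under 0.05. The median log2 change was 0.03, against −0.02 over all genes. The members' share of summed intensity was 2.37% to 2.49% in cyclophosphamide livers and 2.28% to 2.46% in vehicle livers, and the groups overlapped. The precision differed from gene to gene: the SE had a median of 0.06 over the 39 bright members, and for 35 of these the 95% interval lay wholly above −0.32, the median change in spleen. For Rps13, a dim member, the SE was 0.70.

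The smallest p in liver was that of Rpl3, a protein at the peptidyl transferase centre. It had 12.30, 12.26 and 12.12 with wood and 12.33, 12.29 and 12.28 without wood under the drug, against 11.93, 11.99 and 11.99 with wood and 12.12, 11.93 and 12.05 without wood under vehicle. The drug arrays lay just above the vehicle arrays, and the change of 0.26 ± 0.06 had an adjusted p of 0.109 (limma). It passed under 3 of 24 alternatives, with adjusted p of 0.0183 to 0.0391, and over all of them its change ran from 0.16 to 0.29. A second, less bright probe set of Rpl3 changed by 0.05 ± 0.10 in liver (adjusted p = 0.872, limma over all probe sets). Rpl7 had 12.21, 12.34 and 12.20 with wood and 12.23, 12.30 and 12.27 without wood under the drug, against 12.14, 12.13 and 12.15 with wood and 12.16, 12.08 and 12.10 without wood under vehicle. Its groups were also apart, with a change of 0.13 ± 0.06 (adjusted p = 0.346, limma). These 2 members (4.65%) were those whose drug arrays were all above the vehicle arrays, where 1.06% of all genes had that pattern. The opposite was found in 0 members and in 1.82% of all genes.

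Rpl12, at the base of the stalk, and Rpl18 had changes of 0.22 ± 0.09 and −0.18 ± 0.07 (adjusted p = 0.308 and 0.298, limma). The array of rat 2003 was low for several members. Rpl39 was at 9.40 there, against 10.53 to 10.74 on the 5 other drug arrays and 10.45 to 10.70 on the vehicle arrays. Rpl37a was at 10.54 there, against 11.43 to 11.51 on the other drug arrays and 11.37 to 11.50 on the vehicle arrays. Leaving out any 1 rat left 0 members past the threshold. The erythroid sum in liver was 1210 to 1839 under the drug and 8799 to 13187 under vehicle, and the sum for dividing cells 551 to 926 under the drug and 465 to 605 under vehicle.

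No member passed the test for wood in liver either. For wood against no wood 0 of 43 members and 0% of all genes passed (limma), with 0 members at an unadjusted p under 0.05 and a median of 0.03. For the difference between the drug effects the same counts were 0, 0% and 0. The smallest adjusted p were 0.826 (Rps4y2, 0.54 ± 0.26) for wood and 0.952 (Rps6, −0.15 ± 0.12) for the difference (limma).

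The drug effect differed between the organs. Spleen minus liver, it was lower for 38 of 43 members and higher for 0, where 14.7% of all genes were lower and 18.4% higher, with a median difference of −0.36 against −0.01 over all genes. The log2 difference was −0.66 ± 0.09 for Rpl23a (adjusted p = 2.26e-05, limma), −0.56 ± 0.06 for Rpl35 (adjusted p = 3.65e-06) and −0.34 ± 0.06 for Rpl5 (adjusted p = 0.000286). For Rpl39, with its divided arrays, it was −0.86 ± 0.30 (adjusted p = 0.0347), a call that ended with any rat but 2003 or 2005 left out. The 5 that did not pass were Rpl18, Rpl30, Rps13, Rps27l and Rps4y2. With the animal as a replicate block, 34 of 43 were lower, and Rpl13a, Rps15a, Rps16 and Rps6 no longer passed (adjusted p = 0.0548 to 0.0847, limma). Rpl13a also lost its call without rat 1005, 3005 or 4003, Rps6 without 1003, 1005, 3003 or 4001, and Rps15a without any 1 of 8 rats. Under quantile normalisation 22 were lower. With the block and under this scaling the shares of all genes are not given here.

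In vehicle rats 41 of 43 members were higher in spleen than in liver and 1 lower, where 59.2% of all genes were higher and 20.2% lower. The median log2 difference was 1.2, against 0.72 over all genes, and no scale ties the organs together other than that of the deposited values. Under median centring the medians were 0.57 and 0.09, and 35 members were higher. For that scaling the share of all genes is not given here. The largest differences were those of Rps13 (2.06 ± 0.53), Rps15 (1.80 ± 0.07), Rpl12 (1.67 ± 0.07), Rpl35a (1.62 ± 0.05) and Rpl14 (1.57 ± 0.07). Rps15, a small-subunit protein at the decoding site, had a mean log2 intensity of 12.92 ± 0.13 in vehicle spleens and 11.12 ± 0.08 in vehicle livers (SD, n = 6 each). Rps27l was lower in spleen, at 7.66 ± 0.23, than in liver, at 8.61 ± 0.10 (SD, n = 6 each), a difference of −0.96 ± 0.10 (adjusted p = 1.03e-07, limma). In cyclophosphamide rats 38 members were higher in spleen and 1 lower, where 59.4% of all genes were higher and 20.2% lower, with a median difference of 0.87.

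Other genes of the pathway were read from lists, by counts and medians. For every list in spleen the counts stand beside 28.1% of all genes lower and 26.9% higher. Of 84 genes of ribosome assembly and the nucleolus, 69 were lower and 0 higher in spleen, with a median log2 change of −0.47. Mybbp1a, a nucleolar protein that binds Myb, fell by 1.57 ± 0.22 (adjusted p = 0.00021, limma), and Emg1, a methyltransferase of 18S ribosomal RNA, by 1.37 ± 0.16 (adjusted p = 6.56e-05). Of 19 genes of RNA polymerase I and ribosomal RNA transcription, 14 were lower and 1 higher, with a median of −0.47. Polr1e, a subunit of that polymerase, fell by 1.03 ± 0.09 (adjusted p = 1.06e-05, limma), and the 1 higher was Rrn3, its initiation factor (0.18 ± 0.06, adjusted p = 0.0338).

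In the list of elongation factors 7 of 9 genes were lower and 0 higher, with a median of −0.37. Of the listed genes, Eef1e1, an elongation factor by name only, fell by 0.87 ± 0.07. Eef1b2, an exchange factor of eEF1A, fell by 0.65 ± 0.05 (adjusted p = 5.78e-06 for Eef1e1 and 6.19e-06 for Eef1b2, limma). Initiation factors were lower for 19 of 32 genes and higher for 1, with a median of −0.24. Eif3f, a subunit of eIF3, fell by 0.56 ± 0.05 (adjusted p = 9.99e-06, limma) and Eif4g3 rose by 0.31 ± 0.06 (adjusted p = 0.00105). All 4 tested proteins that work on or near the ribosome were lower, among them Rack1, which binds the small subunit (−0.40 ± 0.04, adjusted p = 4.26e-05, limma).

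Of 18 regulators of ribosome synthesis 6 were lower and 4 higher, with a median of −0.02, close to the shares of 28.1% and 26.9% and the median of −0.02 over all genes. Myc, a transcription factor that drives ribosome synthesis, fell by 1.07 ± 0.13 (adjusted p = 0.000101, limma). Eif4ebp1, an inhibitor of cap-dependent initiation, rose by 0.58 ± 0.10 (adjusted p = 0.000932, limma), and Sesn2, a stress-induced inhibitor of mTORC1, by 0.92 ± 0.16 (adjusted p = 0.000903). Of 73 mitochondrial ribosomal proteins, a list added after the data were seen, 29 were lower and 7 higher, with a median of −0.17. In liver 0 genes of any of these lists passed, where only 0.166% of all genes were higher and 0.647% lower. The medians of the lists there lay between −0.07 and 0.04.

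**Figure D5:**
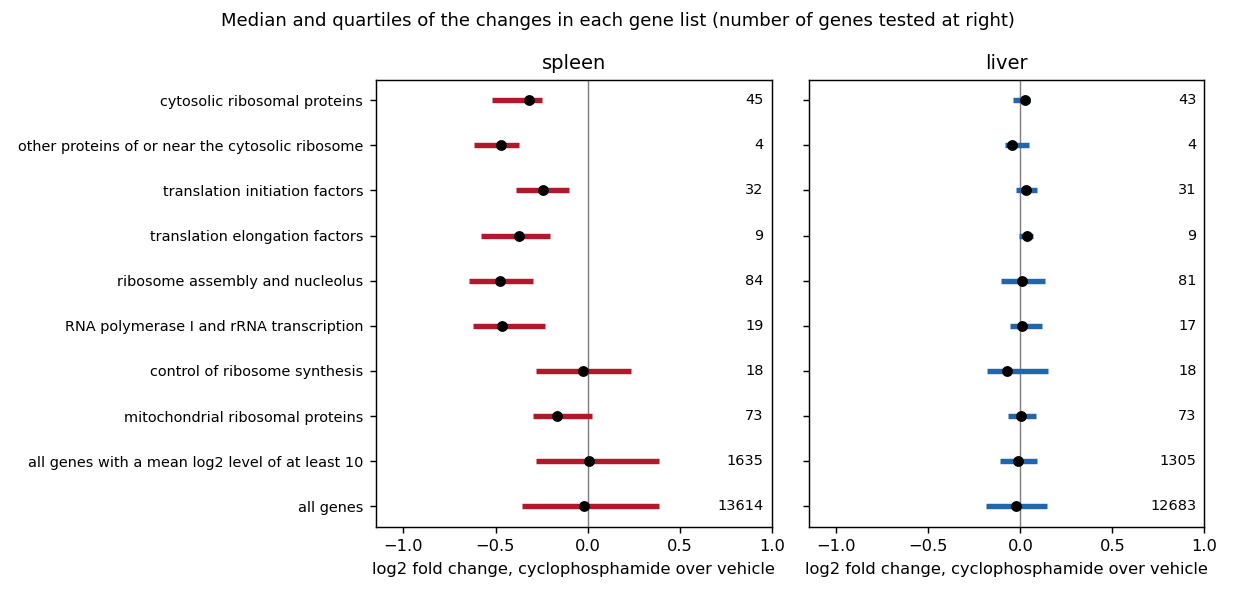
Median (points) and range from lower to upper quartile (bars) of the log2 fold changes, cyclophosphamide over vehicle, of each gene list in spleen and liver, with the number of genes tested at the right. In spleen the cytosolic ribosomal proteins and the assembly, polymerase I, elongation and initiation lists lie left of 0 and all genes around it, while in liver all lists lie around 0.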

How the data were processed

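The processed log10 intensities deposited by the authors were used, 1 column per array. The base was inferred: read as log10, values without the extreme 1% at each end span 2143-fold, and read as log2 10.1-fold. The sources used here do not state how probes were summarised and arrays scaled. Multiplication by log2(10) put them on the log2 scale, where each value is a log2 intensity, and blanks (10.5% of cells) were left missing. Of 30980 probe sets, 20792 name 1 gene, 436 several and 9752 none. A gene with several probe sets was represented by the one that averaged highest on the log2(intensity + 16) scale across the 24 arrays. The ending "ps plus digits" was read as a pseudogene ending after a hyphen, so that Rps13 and its like stay in. Of the members 43 keep their symbol in RefSeq; 40 have 1 probe set and 5 have several.

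R 4.3.3 and limma 3.58.1 were used (lmFit, contrasts.fit, eBayes), with 4 group means per organ, or 8 over both, and Benjamini-Hochberg adjustment over all genes tested at 0.05. A gene was tested where each group had a value. SE is that of the moderated fit. Precision is limited by there being 3 arrays in a group. Each array is a rat's own organ; no pooling is stated in the labels. Liver and spleen of a rat share its number: across 10530 genes their deviations from the group means correlated from −0.058 to 0.170. The fits were tested on simulated data. Alternatives were scalings, choices of probe set, filters, variance priors, array weights, each rat left out, array sets and the animal as a block.

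Members, gene lists and named genes were chosen with earlier results of these data known, so no list gets a test of its own. Named were, per organ, the largest drug changes past the threshold or else the smallest p, the smallest p for wood, the largest differences between organs, the Diamond-Blackfan anaemia, stalk and second-role members, and up to 3 genes of each pathway list. Rps9, Rps16, and the genes named for array sets or for overlap between groups were chosen after their values were seen. RefSeq sequences are of build GRCr8.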

Additional observations from a re-analysis of the deposited data

Results flagged for a closer look

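The drug effect in spleen and that in liver differed by a test of the difference itself, an interaction term over the 24 arrays. It was lower in spleen for 38 of 43 members (14.7% of all genes). Of the 10 members with the largest falls in spleen, 8 were tested in both organs, and the difference, spleen minus liver in log2 units, passed for 6 of them. These were chosen for their fall in spleen, which the difference contains, so the choice favours it and the count adds no support. The difference was −0.86 for Rpl39, −0.66 for Rpl23a, −0.63 for Rpl21, −0.56 for Rpl14, −0.55 for Rpl37a and −0.45 for Rps3. Leaving out 1 rat ended the call of Rpl39 and of Rpl37a for 10 of the 12 rats (all but 2003 and 2005), with differences of −0.96 to −0.66 for Rpl39 and −0.64 to −0.40 for Rpl37a over the 12.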

How the results depend on the processing

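For the drug effect in spleen, 42 or 43 members were lower with any rat left out (median −0.33 to −0.31), and 0 were higher under any alternative; quantile normalisation gave 25 lower and a median of −0.13, and averaging the probe sets of each gene a median of −0.36. For the drug effect in spleen minus that in liver, leaving out a rat gave 31 to 37 lower, quantile normalisation 22 and a median of −0.19, and median centring a median of −0.40. With the animal as a replicate block 34 were lower; beyond the members named, it changed no other call. In liver, 1 member was higher under each of the scale of log2(intensity + 16), the filter at the median level and the robust trend prior. For wood in spleen, leaving out a rat gave 0 to 4 lower; 1 member was higher under the mean of probe sets and 6 under the robust trend prior. The array set as a batch term gave 0 lower and a median of 0.025 (−0.083 for the difference between the drug effects), and quantile normalisation medians of −0.014 for wood, −0.0031 for wood in vehicle rats and 0.0024 for the difference between the drug effects. That difference had 1 member higher under array weights and with rats left out in turn 0 to 1 (1 without 2005). For spleen against liver in vehicle rats, the median was 1.40 under quantile normalisation, 0.57 under median centring and 1.25 without members of restricted expression; 0 were lower in that last count and among the 39 bright members, since Rps27l was left out. Among genes, Rpl14 in liver was at 0.82 with the mean of its probe sets. In spleen minus liver, with rats left out, Rps4y2 ran from −0.11 to 0.22, with −0.11, −0.019 and −0.054 without 1001, 2003 or 4003, and Rps13 from −0.96 to 0.053, with 0.053 and 0.0034 without 4003 or 4005. Counts under these alternatives are given without the shares of all genes, so they are not set against them. The count for bright members, the 4 arrays with more blanks and the mitochondrial list were chosen after seeing the data. Except as stated for fewer genes or samples, the cause was not tested. Dim probe sets limit Rpl28, Rpl30, Rpl3l, Rps13, Rps27l and Rps4y2.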
